A study of Mus musculus with 8 samples.

Results

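The loci of the mouse DNA methyltransferase genes Dnmt1, Dnmt3a and Dnmt3b were followed through reprogramming in 8 lists of 5-hydroxymethylcytosine (5hmC) peaks. The members are the peaks of any list that share at least 1 bp with a window around each gene, given in the mouse assembly mm9: chr9:20700000-20770000 for Dnmt1, chr12:3795000-3920000 for Dnmt3a and chr2:153465000-153520000 for Dnmt3b. These windows held 144 of the 684512 peaks of all lists, 61 at Dnmt1, 79 at Dnmt3a and 4 at Dnmt3b. The windows reach past the genes, and without an mm9 annotation at hand no peak was placed in a promoter, exon, intron or untranslated region. In GRCm38 the nearest protein-coding genes are Eif3g and S1pr2 for Dnmt1, Dtnb and Pomc for Dnmt3a, and Commd7 and Mapre1 for Dnmt3b, and the pseudogene-annotated copy Dnmt3b-ps1 lies between Dnmt3b and Mapre1.

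The samples were mouse embryonic fibroblasts (MEF), which per the labels are OG2-MEFs, reprogramming intermediates at D1, D3 and D5 (read as days) of the OSNK or the OySyNyK method, and induced pluripotent stem cells (iPSC). OSNK is known from the study as Oct4, Sox2, Nanog and Klf4. In OySyNyK all of them but Klf4 carry a transactivation domain of YAP. Per the labels, medium for iPSC generation held vitamin C and LIF, and iPSCs were kept on mitomycin C-treated MEF feeders. Whether feeder DNA entered the iPSC library is not given in the sources used here, and its part in the values was not tested. The iPSC sample carries the OySyNyK factors in its title. Each group was 1 library, so no difference between groups has a replicate check and no p-value is given.

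DNA methyltransferases write 5-methylcytosine, mostly at CG dinucleotides, and the TET enzymes oxidise it to 5hmC. Dnmt1 copies methylation onto the new strand after DNA replication. Dnmt3a and Dnmt3b set methylation at sites that had none, and Dnmt3b is known as strongly expressed in pluripotent cells. 5hmC is often found along the bodies of active genes and at enhancers, while promoters dense in unmethylated CG carry little of it. A peak here is a mark on DNA in the window around a gene, not always in the gene, and not a measure of the enzyme.

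The starts of the genes differ in how many CG they offer to these enzymes, which is why a stretch upstream of each is shown. The sequences are the 250 bases before an annotated start, from RefSeq on GRCm38.p6, 5′ to 3′ on the gene's strand, with CG in capitals. Their coordinates cannot be set against those of the peaks, which are in another assembly. All 3 genes matched, with 7 starts among them, and 1 stretch per gene is printed.
Dnmt1 (chr9:20952980-20953229, minus strand): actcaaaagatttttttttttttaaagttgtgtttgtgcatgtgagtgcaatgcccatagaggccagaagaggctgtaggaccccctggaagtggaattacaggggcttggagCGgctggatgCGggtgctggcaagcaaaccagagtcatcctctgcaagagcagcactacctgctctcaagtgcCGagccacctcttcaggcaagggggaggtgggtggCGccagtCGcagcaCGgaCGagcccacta
Dnmt3a (chr12:3806730-3806979, plus strand): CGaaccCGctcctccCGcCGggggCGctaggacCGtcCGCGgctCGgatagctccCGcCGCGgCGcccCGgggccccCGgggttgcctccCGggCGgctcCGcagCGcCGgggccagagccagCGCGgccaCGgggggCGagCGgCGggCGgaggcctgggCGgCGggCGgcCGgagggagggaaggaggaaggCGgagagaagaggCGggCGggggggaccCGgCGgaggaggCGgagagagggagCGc
Dnmt3b (chr2:153649199-153649448, plus strand): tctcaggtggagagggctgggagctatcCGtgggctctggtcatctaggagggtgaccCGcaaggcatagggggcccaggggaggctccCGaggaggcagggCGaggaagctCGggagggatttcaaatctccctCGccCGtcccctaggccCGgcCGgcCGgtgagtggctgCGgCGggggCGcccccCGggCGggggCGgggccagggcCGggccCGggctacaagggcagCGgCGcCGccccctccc
The Dnmt3a stretch held 38 CG, a number reached by 1.88% of the 32851 promoters of the same table. The Dnmt3b stretch held 21, reached by 16.3%, and the Dnmt1 stretch held 7, reached by 46.3%, against a median of 6 over all promoters. The other starts ranged from 2 to 26 CG for Dnmt1 and from 15 to 40 for Dnmt3a. The order of the genes by CG thus depends on which start is printed.

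The lists held between 54938 peaks (iPSC) and 116302 peaks (OSNK D1) and covered between 41.1 Mb and 98.2 Mb. Read depth is unknown, and the number, width and score of peaks depend on it. The score is the authors' value for each peak, which MACS usually writes as -10 times the log10 of a p-value, and its lowest value was 50 in every list. Cover below is the percentage of a window's bases that lie in peaks. To allow for list length, each window was set beside all adjoining windows of its own length on its chromosome, 1722 on chromosome 9, 941 on chromosome 12 and 3245 on chromosome 2.

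The 3 loci had different 5hmC courses. Dnmt1 went from modest cover in MEF to one of the densest stretches of chromosome 9 in iPSC, Dnmt3a had a similar amount of cover in MEF and iPSC when all peaks were used, at different positions, and Dnmt3b was nearly without peaks in every library. From MEF to iPSC, cover was higher by at least 2-fold at 1 of the 3 loci, Dnmt1. Such a difference, with at least 1000 bp in the larger library, was found in 10.9% of the windows of chromosome 9, 16.7% of those of chromosome 12 and 11.8% of those of chromosome 2. In the other direction the shares were 28.2%, 18.7% and 22.1%, and none of the 3 loci was lower by 2-fold. With peaks scoring 100 or more, Dnmt3a was, at 1.37% in iPSC and 4.92% in MEF. The share of windows passing 2-fold was not counted for that peak set. The cut also keeps unlike parts of the 2 lists, whose median scores were 103 in MEF and 71.0 in iPSC.

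**Figure D1:**
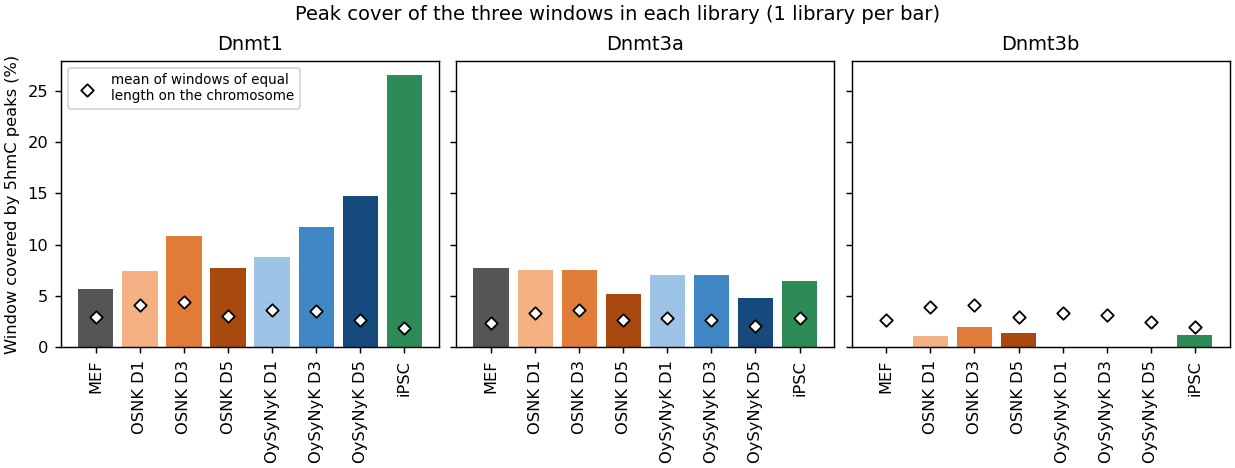
Percentage of each window covered by 5hmC peaks (vertical axis) in the 8 libraries (1 bar each); diamonds give the mean of all windows of equal length on the same chromosome. Dnmt1 cover in iPSC, 26.6%, stands above every other bar, Dnmt3a lies between 4.80% and 7.72%, and Dnmt3b does not exceed 1.91%.

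At Dnmt1, the maintenance methyltransferase, cover was 5.68% in MEF and 26.6% in iPSC. With OSNK it was 7.42% at D1, 10.8% at D3 and 7.73% at D5. With OySyNyK it was 8.80% at D1, 11.7% at D3 and 14.7% at D5. With all peaks, the 6 intermediates thus lay between MEF and iPSC, OySyNyK was higher on each later day, and OSNK was highest at D3, the list with the widest peaks. The order depended on the weaker peaks and on peak width. With peaks scoring 100 or more, MEF stayed at 5.68%, OSNK D1 and D5 were below it at 3.96% and 4.45%, and OySyNyK had 8.73%, 5.08% and 9.07% by day. With equal numbers of peaks per list, OSNK D1 was again below MEF at 3.96%, and OySyNyK had 8.73%, 9.94% and 10.6%. With every peak set to 500 bp, OSNK had 3.57%, 3.57% and 4.29% by day, and OySyNyK 3.57%, 5.71% and 5.71%. With equal numbers of 500-bp peaks, OySyNyK had 3.57%, 4.29% and 3.57%. MEF had 5 peaks and iPSC 16. On D1, D3 and D5, OSNK had 6, 5 and 6 peaks, while OySyNyK had 6, 8 and 9. The iPSC peaks were thus the most numerous although that list was the shortest.

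Set against its chromosome, Dnmt1 stood out more in iPSC than in MEF. The mean cover of the chromosome 9 windows was 2.97% in MEF and 1.88% in iPSC, so the Dnmt1 value was 1.91 times the mean in MEF and 14.2 times in iPSC. In MEF, 293 of the 1722 other windows had more cover than Dnmt1, and in iPSC 1 had. Of these windows, 35.7% had no peak in MEF and 44.9% had none in iPSC. The iPSC minus MEF difference was 20.9 percentage points, while the other windows lay between -31.9 and 20.8, so none reached it. It was 12.2 points with peaks of a score of at least 100 and 7.86 with every peak set to 500 bp, and in these settings 2 windows of the chromosome exceeded it. The windows just below and above Dnmt1 were covered to 10.3% and 8.80% in iPSC and to 6.86% and 2.10% in MEF. In iPSC both neighbours thus also lay above the chromosome mean of 1.88%, so raised iPSC cover was not confined to the Dnmt1 window. How far along the chromosome the raised cover reached was not measured.

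**Figure D2:**
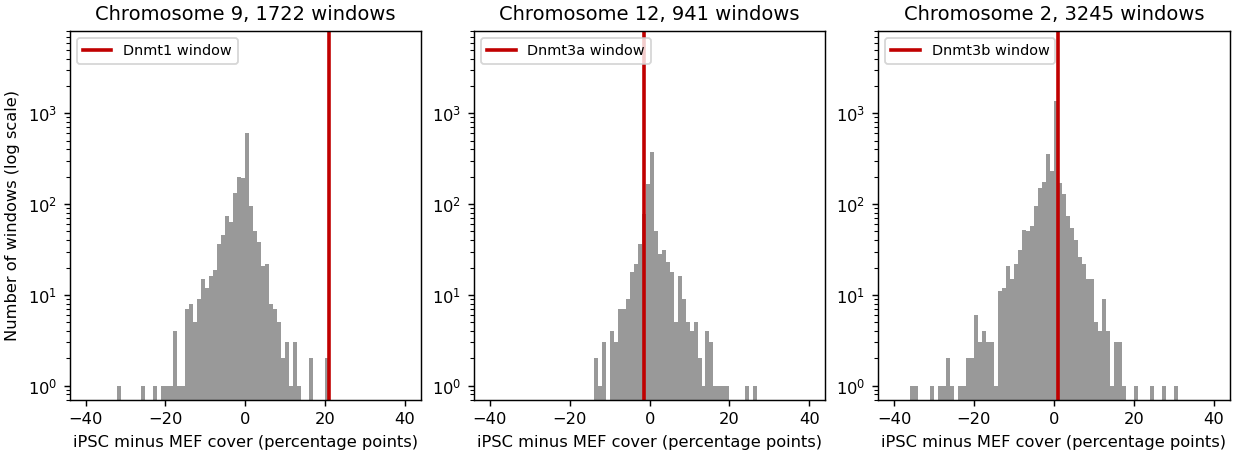
Histograms of the iPSC minus MEF difference in cover (horizontal axis, percentage points) over windows of equal length on the chromosome of each gene (vertical axis, number of windows, log scale); the red line is the gene's own window. Dnmt1 lies at 20.9 points, beyond all 1722 windows, while Dnmt3a at -1.31 and Dnmt3b at 1.15 lie inside the bulk.

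The size of the difference between the methods at Dnmt1 depended on the peak set. With all peaks, OySyNyK D5 exceeded OSNK D5 by 6.99 points, a ratio of 1.90, and 15 of the 1722 other windows had a difference as large. In that peak set the ratio did not reach 2-fold, which 6.5% of the windows did. Against MEF, OySyNyK D5 was higher by 9.04 points, a ratio of 2.59 that passed 2-fold, as did 10% of the windows. This call was lost with peaks scoring 100 or more (3.39 points), equal numbers of peaks (4.92), equal numbers of 500-bp peaks (0.714) and wider windows (17.4% against 9.17%). OSNK D5 was higher than MEF by 2.05 points, and 287 windows had as large a difference, while 15.3% passed 2-fold. That difference was -1.23 with a score of at least 100, 0.569 with equal numbers of peaks and 0 with equal numbers of 500-bp peaks, so it has no stable direction. OySyNyK exceeded OSNK by 1.38 points at D1 and 0.854 at D3, short of the 2-fold that 2.56% and 4.88% of the windows passed. The D1 difference was 4.77 both with a score of at least 100 and with equal numbers of peaks. There it was 8.73% against 3.96%, which passes 2-fold. With a score of at least 100, 8 of the 1722 other windows exceeded that difference, and with equal numbers 21 did. The D1 difference was 0 with 500-bp peaks. The D3 difference was -1.17 with a score of at least 100 and 2.54 with equal numbers. The D5 difference was 4.62 with a score of at least 100, 9.07% against 4.45%, which passes 2-fold, and 14 windows exceeded it. It was 4.35 with equal numbers and 0.714 with equal numbers of 500-bp peaks. The shares of windows passing 2-fold in these settings were not counted. No day can thus be named as the one with the largest difference.

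Peaks of the 8 lists that shared bases were merged into sites, numbered along each window, giving 21 at Dnmt1. An iPSC peak without a MEF peak marked 12 of them, against 18.4% of the 222790 sites of all chromosomes, 7 were marked in iPSC only, against 10.9%, and 5 in iPSC and at least 1 intermediate, against 7.53%. A MEF peak without an iPSC peak marked 4, against 22.9%. In all, 9 sites were marked in 1 list only, against 39.1%, and 3 in intermediates alone, against 53.5%. Sites of 1 window lie close together and are not independent of each other. The iPSC peaks were densest in the lower-coordinate part of the window, which was divided into 4 equal segments. In the first segment, cover was 6.08% in MEF and 38.3% in iPSC. In the second segment MEF had no peak and iPSC cover was 41.8%. OSNK had 4.02%, 15.6% and 6.74% there at D1, D3 and D5, and OySyNyK had 10.2%, 18.3% and 27.7%. In the third segment the libraries were closer, 12.5% in MEF and 21.4% in iPSC, and in the fourth they were at 4.17% and 4.94%. The segments were chosen after the peak positions were seen.

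**Figure D3:**
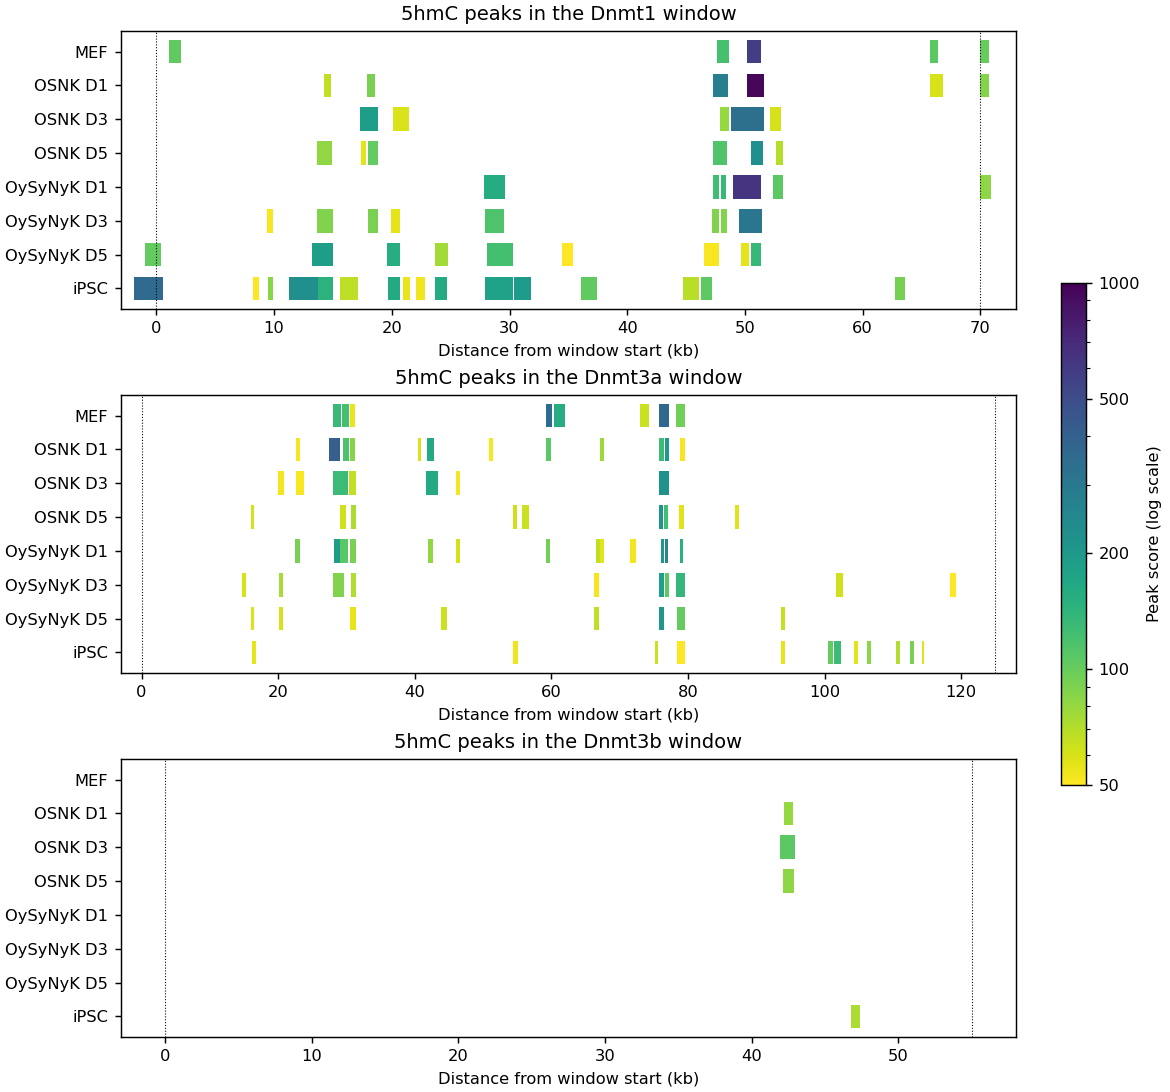
Position of every 5hmC peak in the 3 windows (horizontal axis, distance from the window start in kb; dotted lines mark the window edges) in the 8 libraries (rows), coloured by score on a log scale. At Dnmt1 the peaks near 50 kb are strongest in MEF and at D1 and the iPSC peaks crowd below 40 kb, at Dnmt3a the stretch above 95 kb is filled mainly in iPSC, and Dnmt3b has 4 peaks in all.

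The strongest Dnmt1 site was a MEF site that iPSC lacked. Site 17, chr9:20748777-20751642, had a highest score of 587 in MEF. With OSNK the score was 943, 336 and 228 at D1, D3 and D5, and with OySyNyK it was 629, 309 and 134. No iPSC peak touched it. It was the only Dnmt1 site in MEF and all 6 intermediates but not iPSC, which 4.11% of all sites were. The score was thus highest at D1 and lowest at D5 with both methods. Median scores of the whole lists were also lower on each later day. For OSNK they went from 105 at D1 to 81.3 at D5, for OySyNyK from 95.8 to 75.8. Ranked within its own list, the site was passed or equalled by 3.45% of the MEF peaks, 0.61% at OSNK D1 and 6.28% at OSNK D5. With OySyNyK these shares were 1.09% at D1 and 16.7% at D5.

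Site 16 next to it, chr9:20746248-20748640, had peaks in all 8 lists, as did site 1 at the window's edge, and 2.58% of all sites did so. MEF scored 121 and iPSC 105. OSNK scored 282, 80.6 and 114 by day, and OySyNyK scored 134, 88.6 and 51.3. The MEF and iPSC peaks of this site did not overlap each other, since the MEF peak began at 20747654 and the iPSC peak ended at 20747228. No MEF peak in the window was overlapped by an iPSC peak. Of these 5 MEF peaks, those at sites 16 and 17 were overlapped in all 6 intermediates. The peak at chr9:20701056-20702119 was overlapped in none, and sites in MEF only made up 3.7% of all. In at least 1 intermediate 4 of 5 were overlapped, against 84.8% of all 54329 MEF peaks without an iPSC peak. Those beginning at 20765739 and 20769962 were overlapped at OSNK D1, the latter also at OySyNyK D1, and in no later list. With OSNK 4, 2 and 2 of the 5 were overlapped at D1, D3 and D5, against 74.8%, 47.2% and 36.4% of all such MEF peaks. With OySyNyK it was 3, 2 and 2 of 5, against 69.2%, 44.2% and 28.8%. With 5 peaks these counts cannot be told from the background.

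Among the sites with iPSC peaks, site 5, chr9:20711282-20714981, had no MEF peak and scores of 66.2 at OSNK D1, 82.0 at OSNK D5, 87.8 at OySyNyK D3, 191 at OySyNyK D5 and 224 in iPSC. OSNK D3 and OySyNyK D1 had no peak there. OySyNyK D5 was thus the intermediate nearest to the iPSC score. Site 8, chr9:20719613-20721568, was similar, with 59.2 at OSNK D3, 56.8 at OySyNyK D3, 155 at OySyNyK D5 and 162 in iPSC. Site 10, chr9:20723698-20724777, was marked at OySyNyK D5, with a score of 75.8, and in iPSC with 161. Site 4, starting at 20709432, was marked at OySyNyK D3 with 51.9 and in iPSC with 85.6.

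Site 11, chr9:20727851-20730300, was the one Dnmt1 site found on 2 or more days of OySyNyK and on none of OSNK. Its scores were 159, 116 and 122 over the days of OySyNyK and 178 in iPSC, with no peak in MEF. Such sites made up 4.09% of all sites, so 1 among 21 is near the background. No Dnmt1 site was found on 2 or more days of OSNK and on none of OySyNyK, against 6.85% of all sites.

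The 7 sites found in iPSC alone were sites 3, 6, 9, 12, 14, 15 and 19. Site 12, chr9:20730420-20731842, had the highest score among them, 194, and the others lay between 51.0 and 104. Site 1 crossed the lower edge of the window, and its pattern includes peaks outside. Inside the window it had an iPSC peak, chr9:20698089-20700577 with a score of 359, and a peak of OySyNyK D5 with 102. That iPSC peak was the only one of the 16 that overlapped a MEF peak, which lay outside the window.

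**Figure D4:**
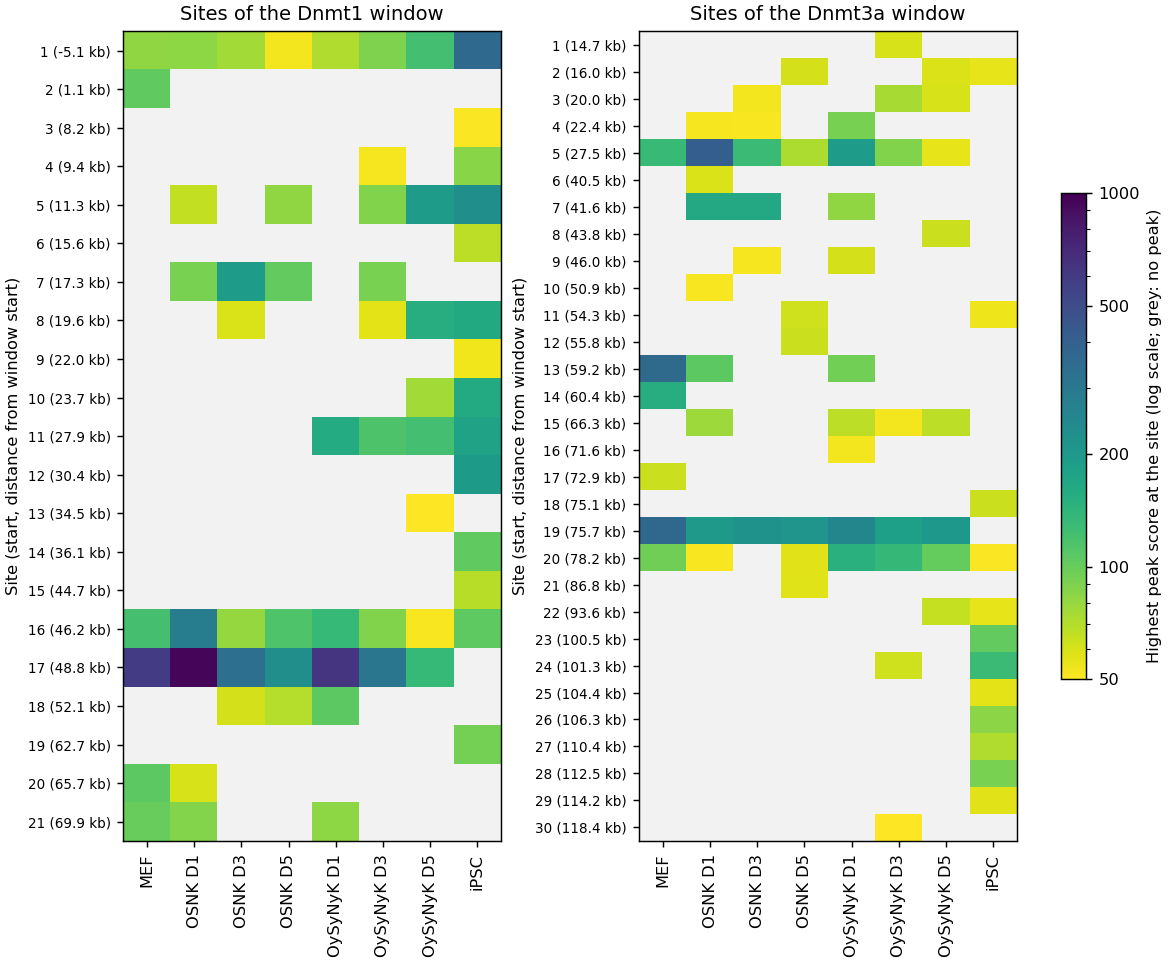
Highest peak score (colour, log scale; grey, no peak) of each site (rows, with the start's distance from the window start in kb) in each library (columns) for Dnmt1 and Dnmt3a. Site 17 of Dnmt1 and sites 5 and 19 of Dnmt3a are marked in MEF and all intermediates but not in iPSC, and the lower rows of Dnmt3a are marked mainly in iPSC; the peaks of site 1 of Dnmt1 lie mostly outside the window.

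The 15 iPSC peaks of the Dnmt1 window without a MEF peak were followed through the days. At D1, 1 of 15 was overlapped with either method, against 11.5% (OSNK) and 14.9% (OySyNyK) of all 43001 such iPSC peaks. With OSNK it was 2 of 15 at both D3 and D5, or 13.3% (95% exact binomial interval 1.66 to 40.5). With OySyNyK it was 6 of 15 at D3 and 6 of 15 at D5, or 40.0% (16.3 to 67.7). The background shares were 18.9% and 22% for OSNK at D3 and D5 and 25.4% and 30.2% for OySyNyK, and the Dnmt1 intervals include them. In at least 1 intermediate, 8 of the 15 were overlapped, against 43.7% of all. With equal numbers of peaks per list, 2 were overlapped at D5 of OSNK, against 15.9% of all, and 5 at D5 of OySyNyK, against 26.1%. Among peaks scoring 100 or more, none of 9 was overlapped at D3 or D5 of OSNK, against 15.5% and 16.9%. With OySyNyK it was 1 of 9 at D3, against 22.9%, and 5 of 9 at D5, against 26.1%. The intervals cover counting error only.

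At Dnmt3a, a methyltransferase of unmethylated sites, cover was 7.72% in MEF and 6.41% in iPSC. OSNK had a cover of 7.49% at D1, 7.52% at D3 and 5.19% at D5, and OySyNyK one of 7.03%, 7.07% and 4.80%. With all peaks, D5 was the lowest day of both methods, and all 8 values lay within 3 points of each other. With equal numbers of peaks, OySyNyK had 4.36%, 3.51% and 4.12%, so its lowest day was D3. MEF had 8 peaks and iPSC 12. By day, OSNK had 12, 7 and 9 peaks, while OySyNyK had 13, 10 and 8. The 12 iPSC peaks were weak, with a median score of 60.1, against 127 for the 8 peaks of MEF. The whole lists also differed in this direction, with medians of 71.0 in iPSC and 103 in MEF. The window lay above the mean of its chromosome in every library, by 1.99 to 3.24 times, and 81 to 160 of the 941 other windows had more cover. OSNK D5 was below the mean in other peak sets, at 0.851 times with a score of at least 100, 0.594 with equal numbers and 0.786 with equal numbers of 500-bp peaks.

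The iPSC minus MEF difference at Dnmt3a was -1.31 points. It was -3.55 with a score of at least 100, where 882 of the 941 windows had a higher value, and 1.60 with 500-bp peaks, so both its size and its direction depended on the peak set. The methods differed by -0.461, -0.450 and -0.394 points at D1, D3 and D5, and each of these had the other sign in some settings, reaching 3.06 at D5 with equal numbers of peaks. No order of the methods can be read from them. On no day did Dnmt3a reach the 2-fold lower cover with OySyNyK that 14%, 20.9% and 15.9% of the windows had at D1, D3 and D5. The D5 minus MEF difference was -2.53 points with OSNK and -2.92 with OySyNyK, again short of the 2-fold that 15.8% and 23.1% of the windows passed. With a score of at least 100, both passed it, at 1.06% (OSNK) and 1.45% (OySyNyK) against 4.92% in MEF. With equal numbers of peaks OSNK D5 passed it, at 1.06% against 7.12%, while with 500-bp peaks the differences were 0.4 and 0 points. The shares of windows passing 2-fold in these settings were not counted.

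The position of the peaks within the Dnmt3a window also differed. In the last of 4 equal segments, neither MEF nor any OSNK list had a peak. OySyNyK D3 was covered to 5.88% there with 2 peaks, OySyNyK D5 to 1.51% with 1, and iPSC to 15.6% with 8 peaks by midpoint, of which 2 scored 100 or more. In the first segment the order was the other way, with 9.28% in MEF and 1.77% in iPSC. There, OSNK had 11.8%, 16.3% and 6.43%, and OySyNyK had 10.9%, 11.0% and 5.60%. Both methods were thus lowest at D5 in the first segment. In the third segment MEF had 13.5% and iPSC 5.74%.

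**Figure D5:**
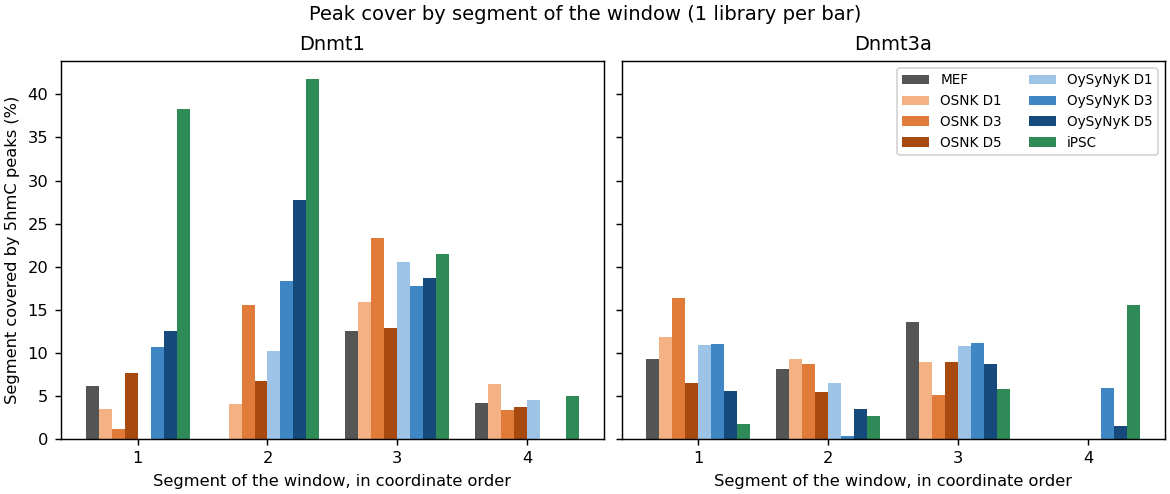
Percentage of each of 4 equal segments of the Dnmt1 and Dnmt3a windows covered by 5hmC peaks (vertical axis), with segments in coordinate order (horizontal axis) and 1 bar per library. In the first 2 segments of Dnmt1 the iPSC bars reach 38.3% and 41.8%, and in the last segment of Dnmt3a only OySyNyK D3, OySyNyK D5 and iPSC have bars.

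Of the 30 Dnmt3a sites, 2 were marked in MEF and all 6 intermediates, against 6.69% of all sites, and neither was marked in iPSC, against 4.11%. A further 2, sites 14 and 17, were in MEF only, against 3.7%, and 17 sites were in 1 list only, against 39.1%. Site 19, chr12:3870713-3872291, had a score of 367 in MEF. OSNK scored 199, 218 and 209 there by day, and OySyNyK 254, 185 and 201. By raw score MEF was thus the highest, and neither method had its lowest score at D5. Ranked within its own list, the site was passed or equalled by 9.18% of the MEF peaks. At D5 the site was passed or equalled by 7.93% of the OSNK peaks and 6.06% of the OySyNyK peaks. By rank it thus stood higher at D5 of both methods than in MEF. Site 5, chr12:3822511-3826432, scored 132 in MEF. Its OSNK scores by day were 410, 129 and 72.2, and its OySyNyK scores 191, 87.9 and 55.8. The first day thus had the highest and the last the lowest value of each method.

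The other 2 of the 4 best-scoring sites had no peak at D5. Site 13, chr12:3854215-3855036, had a score of 355 in MEF, 106 at OSNK D1 and 94.7 at OySyNyK D1, and no peak in a later list. Site 7, chr12:3836584-3838445, had 163 at OSNK D1, 164 at OSNK D3 and 82.6 at OySyNyK D1, and no peak in MEF, at D5 or in iPSC. Of the 30 sites, 13 were marked in intermediates alone, against 53.5% of all sites. No site was confined to 1 method on 2 or more days.

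The iPSC peaks of Dnmt3a lay at 12 sites. Sites with an iPSC peak and no MEF peak were 11 of the 30, against 18.4% of all sites. Sites 18, 23 and 25 to 29 were marked in iPSC alone, 7 of the 30, against 10.9%. The best-scoring iPSC site was site 24, chr12:3896322-3897684, with 129, which was also marked at OySyNyK D3 with 62.4. Site 23 next to it, starting at 3895543, had 103. Site 22, starting at 3888606, was marked at OySyNyK D5 with 65.0 and in iPSC with 56.2. Site 2, starting at 3811009, was marked at D5 of both methods, with 60.7 and 58.7, and in iPSC with 55.6. Site 11, starting at 3849317, was marked at OSNK D5 with 61.7 and in iPSC with 54.2. The one peak shared with MEF was at site 20, chr12:3873205-3874618, where iPSC had 50.9 and MEF 95.9. Sites in both MEF and iPSC were 1 of 30 here, 2 of 21 at Dnmt1 and 5.23% of all. OSNK had 51.2 there at D1, no peak at D3 and 57.4 at D5, and OySyNyK had 149, 135 and 102. Of the 7 MEF peaks without an iPSC peak, 4 were overlapped at D5 of OSNK and 2 at D5 of OySyNyK, against 36.4% and 28.8% of all. With either method 2 of the 11 iPSC peaks without a MEF peak were overlapped at D5, or 18.2% (95% exact binomial interval 2.28 to 51.8), against 22% of all such peaks for OSNK and 30.2% for OySyNyK. With equal numbers of peaks per list it was 0 of 11 for OSNK, against 15.9%, and 2 of 11 for OySyNyK, against 26.1%. Among peaks scoring 100 or more it was 0 of 2 for both, against 16.9% and 26.1%.

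At Dnmt3b, the methyltransferase known from pluripotent cells, 4 lists had 1 peak each and 4 had none. OSNK had a cover of 1.09%, then 1.91% and 1.34% by day, and iPSC one of 1.15%. MEF and all days of OySyNyK had none. The OSNK peaks formed site 1, chr2:153506914-153507966, with scores of 80.1, 106 and 83.4. The iPSC peak was elsewhere, at site 2, chr2:153511741-153512370, with a score of 73.1, and no other list had a peak there. With all peaks, the OSNK site was thus found on all days of 1 method and in no other library. The share of such sites was not counted. A broader kind, OSNK on 2 or 3 days and OySyNyK on none, with or without MEF and iPSC peaks, made up 6.85% of all sites. With equal numbers of peaks per list, the OSNK D1 peak was no longer included.

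A stretch without peaks is common on chromosome 2. Of its 3245 windows of the same length, 45.5% had no peak in MEF, 41.1% at OySyNyK D1, 46.4% at OySyNyK D3 and 52.5% at OySyNyK D5. The OySyNyK minus OSNK differences were -1.09, -1.91 and -1.34 points at D1, D3 and D5. The difference at D3 passed 2-fold with at least 1000 bp in the larger library, as did 15.8% of the windows. At D1 and D5 the OSNK peak was shorter than that, and 12.1% and 14% of the windows were lower. The D3 call cannot be made with 500-bp peaks, which are shorter than 1000 bp. With a score of at least 100 the window had 1 peak in all, at OSNK D3. The window just below had peaks in every library, with cover from 1.17% to 6.95%. At this depth, which is unknown, a missing peak does not show that 5hmC was absent.

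The bases covered by both methods on the same day were also counted. At Dnmt1, bases in peaks of both methods made up 25.8%, 33.4% and 20.4% of those in peaks of either at D1, D3 and D5. At D3 these were 3947 of 7583 OSNK bases and of 8181 OySyNyK bases. At Dnmt3a these values were 49.3%, 31.9% and 27.5%, and at D1 5990 of 9364 OSNK bases and of 8788 OySyNyK bases were shared. At Dnmt3b no base was shared, since OySyNyK had no peak. D5 had the lowest shared portion at both Dnmt1 and Dnmt3a. The shared portion of other windows was not computed, so this order has no background and cannot be read as particular to these loci. Unequal cover also limits the shared portion, and at Dnmt1 D5 OSNK had 5409 bases and OySyNyK 10302.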

How the data were processed

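Peak lists of 8 libraries, 1 per group, were used. Per the labels' protocols, sonicated DNA was given an azide-bearing glucose at 5hmC, biotinylated, captured on streptavidin and sequenced. Per the submitters' processing notes, Bowtie and MACS were used, with no version, setting or control stated. The builds named there, hg18 and NCBI36, are human. Peaks passed the last GRCm38 gene on 10 of 20 chromosomes, and mm9 was assumed from general knowledge of chromosome lengths. Each deposited peak has a score as the authors' peak caller wrote it. Read depth is unknown.

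Cover, overlap (at least 1 bp) and sites were computed with pandas 2.3.3, scipy 1.17.1 and numpy 2.4.6 under Python 3.11.15, tested on simulated data and checked with bedtools 2.31.1, which gave the same cover in all 24 cases. Figures used matplotlib 3.10.9. All adjoining windows of equal length from the first to the last peak of the chromosome, without those touching the gene's window, took the place of random windows. A difference counted at 2-fold with at least 1000 bp in the larger value. The shares of windows passing this were counted with all peaks only.

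Named sites were the 4 best-scoring of each window, those with an iPSC peak, those in MEF and all intermediates, and those found on 2 or more days of 1 method and none of the other. Genes, windows and lists were chosen with earlier results of these data known. Alternatives were peaks scoring 100 or more, lists cut by score to 54938 peaks, peaks within 1 kb merged, 500-bp peaks, equal numbers of 500-bp peaks, and windows 10 kb wider on each side. Their use for ranks and peak numbers, and the segments, were chosen after seeing the data.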

Additional observations from a re-analysis of the deposited data

How the results depend on the processing

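No paired analysis was possible because each group had 1 library. A cover difference was taken as moved when it changed by more than the 95% binomial interval's half-width over units of 500 bp, and all values here are percentage points. Single peaks span more than 1 such unit, so the units are not independent. The half-width is a yardstick for the size of a change and not an estimate of error. At Dnmt1 the iPSC minus MEF difference (20.9) was 12.2 with a score of at least 100 and 7.86 with 500-bp peaks, with or without equal numbers, and stayed between 18.0 and 25.5 under the other 3 alternatives. Over 5 alternative sets of peaks, 0 to 3 of the 1722 windows of chromosome 9 exceeded it. The OySyNyK minus OSNK difference at Dnmt1 was -1.17 at D3 with a score of at least 100 and 0.714 at D5 with equal numbers of 500-bp peaks. At Dnmt3a the iPSC minus MEF difference (-1.31) was 1.60 with 500-bp peaks and 2.00 with equal numbers of them. The Dnmt3a difference of the methods at D1 was 0.542 with equal numbers of peaks, 0.4 with 500-bp peaks and 1.20 with equal numbers of 500-bp peaks. At D3 it was 0.138 with peaks within 1 kb merged, 1.20 with 500-bp peaks, 0.0538 with wider windows and 0.4 with equal numbers of 500-bp peaks. At D5 it was 0.390 with a score of at least 100, 3.06 with equal numbers of peaks and 2.00 with equal numbers of 500-bp peaks. At Dnmt3b no difference between methods or end states changed sign, and those at D1 and D5 and that of iPSC against MEF were 0 with a score of at least 100. The Dnmt3b difference at D1 was also 0 with equal numbers of peaks and of 500-bp peaks. Fixing the width at 500 bp removes differences in peak width by construction. The cause of the other changes was not tested. Depth is unknown, so weak peaks may be missing from any list.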
